A study of Homo sapiens with 7 samples.

Results

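The maps of NuMA and of histone H1 in wild-type HCT116 cells, an established human colon cancer cell line, were compared as lists of peaks. The comparison took 4 of the 7 samples of the series: the NuMA library made with an antibody to the C terminus, the NuMA library made with an antibody to the N terminus, and replicates 1 and 2 of histone H1 in wild-type cells, whose titles carry NC. They were chosen by their labels, and the 4 lists held 43863 of the 47959 peaks of the series on the 24 chromosomes 1 to 22, X and Y. Per the labels, all 4 libraries were CUT&Tag assays of 10000 cells, in which an antibody brings the Tn5 transposase to the protein and the enzyme cuts and tags the DNA beside it. The labels gave no treatment for these cells. The peak names in the NuMA lists carry the word ChIP-seq and those in the H1 lists carry Cuttag, whereas the labels describe CUT&Tag for every sample, so a difference in assay and the difference in target cannot be told apart. The 2 H1 libraries from NuMA-depleted cells were not used, and the immunoglobulin G library was not analysed here. The labels did not say whether the H1 replicates were separate cultures, so their spread may be technical. The NuMA libraries were 1 per antibody and were taken as 2 libraries of 1 target.

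NuMA is a large coiled-coil protein that organises spindle poles in mitosis and lies in the nucleus in interphase, where it counts as a component of the nuclear scaffold. Its C-terminal part can bind microtubules and DNA. Histone H1 is the linker histone, which sits where DNA enters and leaves the nucleosome and helps to pack nucleosome arrays. H1 is abundant and spread over most of the chromatin, so a peak of H1 marks a place with more tagged DNA than its surroundings and not the whole of its binding. The comparison asks whether the places that stand out for NuMA and for H1 lie in the same parts of the genome.

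The lists held 14240 NuMA C-terminal, 19518 NuMA N-terminal, 4552 H1 replicate 1 and 5553 H1 replicate 2 peaks. Sequencing depth is unknown, since the lists hold no totals. The fold and −log10 p of a peak together give the fragments piled up at its summit, whose median was 28 in the C-terminal, 58 in the N-terminal, 19 in the H1 replicate 1 and 18 in the H1 replicate 2 list. The NuMA lists were both longer and built on more fragments per peak. Target, depth and list length cannot be told apart over 4 libraries, and widths, packing, distances within a list, bin correlations, bin calls, the share of H1 near NuMA and the chains were also computed for lists of equal length. The other comparisons were not run at equal length. Each list is described by where its peaks lie, as a share of that list. A test of 2 NuMA against 2 H1 libraries by exact permutation cannot give a two-sided p below 0.333.

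NuMA peaks were wider than H1 peaks. The median width was 713.5 bp in the C-terminal and 789 bp in the N-terminal list, against 399 bp in H1 replicate 1 and 365 bp in H1 replicate 2. The middle 50% of the peaks spanned 548 to 1074 bp and 576 to 1236 bp for NuMA, and 337 to 494 bp and 310 to 459 bp for H1. Even the 25th percentile of each NuMA list thus lay above the 75th percentile of each H1 list. On the log2 scale the mean of the medians was 9.55 ± 0.10 (SD, n = 2) for NuMA and 8.58 ± 0.091 (SD, n = 2) for H1, a difference of 0.98 or 1.97-fold (exact permutation p = 0.333, the smallest possible). With lists of equal length, which keep the strongest peaks, the difference was 1.40. Peaks over 1 kb made up 28.6% and 35.7% of the NuMA lists and 1.30% and 1.24% of the H1 lists. The NuMA lists held 30 and 116 peaks over 5 kb, and the H1 lists held 0 each. The shortest peak was 439 and 429 bp for NuMA and 291 and 273 bp for H1, so part of the gap was present at the lower limit. Relative to the shortest peak of its list the median was 1.63 and 1.84 for NuMA and 1.37 and 1.34 for H1.

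NuMA peaks were packed into few megabases, and H1 peaks were spread. The genome was divided into 3106 fixed bins of 1 Mb, and the densest 311 of them (10%) are set against the rest. These bins held 77.1% of the C-terminal list and 71.7% of the N-terminal list. The same measure was 37.9% in H1 replicate 1 and 37.2% in H1 replicate 2. The means were 74.4% ± 3.8 for NuMA and 37.5% ± 0.51 for H1 (SD, n = 2), a difference of 36.9 percentage points (exact permutation p = 0.333, the smallest possible). With lists of equal length it was 44.5 points. Only 116 and 135 bins were needed to hold 50% of the NuMA lists, against 476 and 488 bins for H1. No C-terminal peak was called in 56.2% of the bins and no N-terminal peak in 45.4%, although both NuMA lists were much longer than the H1 lists, which left 40.1% and 37.3% of the bins empty. The most peaks in a bin were 183 and 229 for NuMA and 27 and 25 for H1.

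NuMA peaks also lay close together at the scale of kilobases. The median distance from a summit to the nearest other summit of its own list was 5.24 kb in the C-terminal and 4.63 kb in the N-terminal list. It was 132 kb in H1 replicate 1 and 108 kb in H1 replicate 2. The H1 distance was 24.2-fold the NuMA distance, a log2 difference of −4.60 for NuMA minus H1 (exact permutation p = 0.333, the smallest possible). At equal list length the difference was −3.58. A neighbour within 10 kb was found for 66.0% and 67.6% of the NuMA peaks and for 6.28% and 8.23% of the H1 peaks. Summits of a list at most 10 kb apart were then joined into chains. Chains of 10 or more peaks held 16.2% of the C-terminal and 22.2% of the N-terminal list, but 0.57% and 0.70% of the H1 lists. In the H1 lists, 93.7% and 91.8% of the peaks stood alone, against 34.0% and 32.4% in the NuMA lists.

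**Figure D1:**
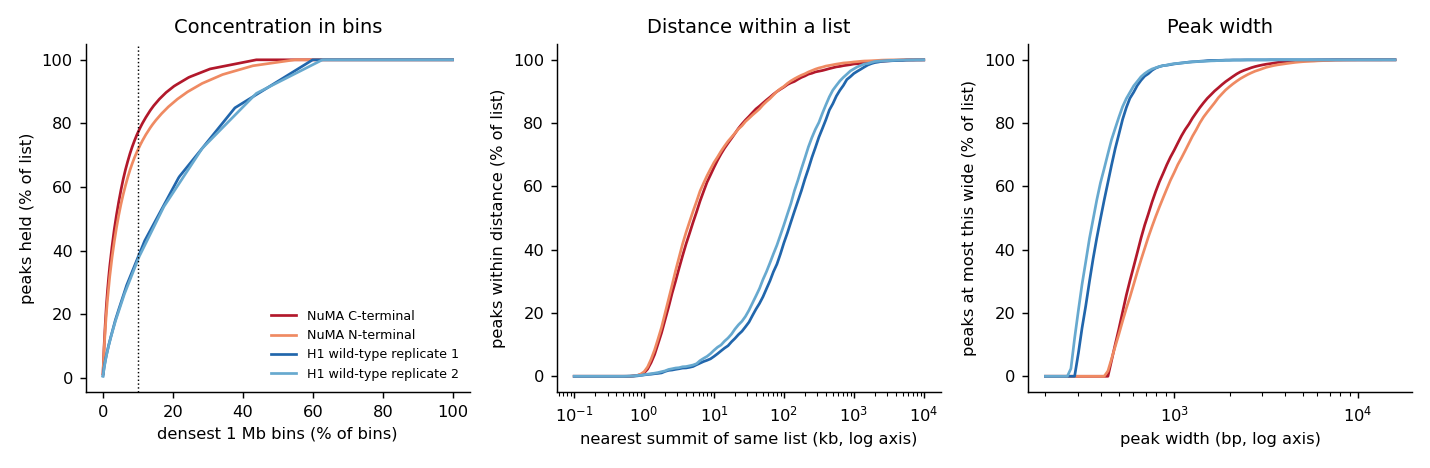
Left, share of each list held by the densest 1 Mb bins, with bins ranked within each list and a dotted line at 10% of the bins; middle, share of peaks whose nearest summit of the same list lies within the distance on the log axis; right, share of peaks at most as wide as the width on the log axis. In all 3 panels the curves of the NuMA lists lie together and apart from the H1 curves: the densest 10% of the bins hold 77.1% and 71.7% of the NuMA lists and 37.9% and 37.2% of the H1 lists.

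The longest chains of the targets lay in different places. The longest NuMA chain was an N-terminal chain of 88 peaks over 355 kb at chr19:840573-1195566 (hg19 throughout). This segment also held 68 C-terminal summits, but 1 summit of H1 replicate 1 and 3 of H1 replicate 2. The longest C-terminal chain had 40 peaks over 152 kb near the end of the long arm of chromosome 17, at chr17:79843301-79995747, with 33 N-terminal summits, 0 of H1 replicate 1 and 2 of H1 replicate 2. The longest H1 chains had 14 peaks each. In replicate 1 such a chain lay at chr8:86739320-86804596 and in replicate 2 at chr8:86726615-86804703, so that they overlapped. The segment chrY:13460763-13489452 held a chain of 12 peaks of replicate 1, and the same place held 14 of replicate 2. The 3 longest chains of each H1 list held 0 summits of either NuMA list. H1 peaks in chains of 3 or more had lower folds than H1 peaks alone, with a median of 4.42 against 6.45 in replicate 1 and 4.27 against 6.21 in replicate 2.

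Whole chromosomes differed more for NuMA than for H1. Between the densest and the sparsest autosome the number of peaks per bin differed 42.7-fold and 28.2-fold in the NuMA lists and 3.59-fold and 3.86-fold in the H1 lists. Chromosome 19, rich in genes, was the densest for NuMA at 8.11 and 7.82 times the list's mean, whereas for H1 it stood at 1.76 and 1.74 times. H1 was densest on chromosome 17, at 1.95 and 2.09 times its mean. For NuMA, chromosome 17 came next after chromosome 19, at 4.20 and 3.74 times. In H1, chromosome 17 was followed by chromosome 14 at 1.77 times in replicate 1 and by chromosome 19 in replicate 2. Chromosome 14 was at 1.66 times in replicate 2, but at 0.81 and 0.84 times in the NuMA lists. Chromosome 8 likewise stood at 1.42 and 1.52 times for H1 and at 0.66 and 0.69 times for NuMA. Chromosome 22 showed the opposite, with 2.95 and 2.69 times for NuMA and 0.60 and 0.74 times for H1. Bins were counted from the first base of each chromosome, so unassembled sequence lowers the density of a chromosome in every list. Its share of each chromosome was not measured, so a density below the list's mean need not be a lack of peaks. Both NuMA densities lay above both H1 densities on 8 of 24 chromosomes (33.3%), which were 9, 11, 12, 16, 17, 19, 20 and 22. Both H1 densities lay above on 14 (58.3%), and the groups overlapped on chromosomes 21 and X. Chromosome X was sparse in all lists, at 0.19 and 0.28 times the mean for NuMA and 0.16 and 0.20 times for H1. The number of copies of a chromosome in these cells was not measured here.

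Bin by bin, lists of the same target resembled each other and lists of different targets did so far less. Over the 3106 bins, the share of peaks per bin correlated at Pearson r = 0.98 between the NuMA antibodies and at 0.79 between the H1 replicates. The 4 pairs of a NuMA with an H1 list lay between 0.29 and 0.38. These values are descriptions across bins, which share library, depth and sequence composition and are not replicates. The mean within targets exceeded the mean between targets by 0.555 (exact permutation over the 3 ways to pair 4 libraries, p = 0.333, the smallest possible). At equal list length the NuMA lists still correlated at 0.96 and the H1 lists at 0.79, and the pairs between targets at 0.30 to 0.33. Spearman's rho was higher between targets, at 0.53 to 0.61, and 0.87 and 0.77 within them. When the bins with no peak of any list were left out, rho between targets fell to the range 0.33 to 0.40, and bins empty in all lists, 26.3% of the genome's bins, thus made up part of the likeness. Within single chromosomes the mean r between targets had a median of 0.37 over 24 chromosomes, from 0.015 on chromosome X to 0.63 on chromosome 15. It was below both within-target values on 24 of 24 chromosomes.

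The densest bins of the targets overlapped in part. Of the 311 densest C-terminal bins, 90.7% were also among the 311 densest of the N-terminal list, and 55.9% were shared between the H1 replicates. H1 replicate 1 shared 27.0% with the C-terminal and 27.3% with the N-terminal list, and H1 replicate 2 shared 36.7% and 35.7%. Of all bins, the 311 densest of a list make up 10%. A peak of all 4 lists was present in 1040 bins (33.5%). Peaks of both NuMA lists without any H1 peak were found in 71 bins (2.29%), and peaks of both H1 lists without any NuMA peak in 299 bins (9.63%). Over all bins, 56.2% held no C-terminal and 45.4% no N-terminal peak, and 40.1% and 37.3% held no peak of H1 replicate 1 and 2.

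A test in each bin separated the targets widely. Bins with a mean share of at least 2 peaks per 10000 listed were tested with limma on log2 of the share plus 2, and 827 of 1330 (62.2%) passed an adjusted p of 0.05. The NuMA share was higher in 244 (18.3%) and the H1 share in 583 (43.8%). Without overlap, both NuMA shares lay above both H1 shares in 332 bins (25%) and below in 768 (57.7%). The median difference over all tested bins was −0.66 on the log2 scale, and it turned to 0.29 with bins of 250 kb and to 0.35 with a filter of at least 5 peaks per 10000. When each list was centred on its median bin, 461 bins passed, of which 75.7% were higher for NuMA, against 29.5% without centring. With lists of equal length 481 of 1286 tested bins passed, and with no filter 281 of 3106. With a library left out the median difference lay between −0.87 (without the N-terminal list) and −0.51 (without H1 replicate 1). On chromosome 19, 36 of 50 tested bins were higher for NuMA and 5 for H1, and on chromosome 22 it was 18 and 1 of 25. On chromosome 8, 52 of 76 were higher for H1 and 3 for NuMA, and on chromosome 14 it was 35 and 2 of 54. With a library left out its target had 1 library, which was assumed to vary like the other target's pair. The direction count depends on the scaling, bin size and filter, while the bins named below are those at the ends of the range. The filter let 93 called bins with 0 NuMA peaks in both lists pass through H1 alone, and 10 called bins with 0 H1 peaks through NuMA alone.

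**Figure D2:**
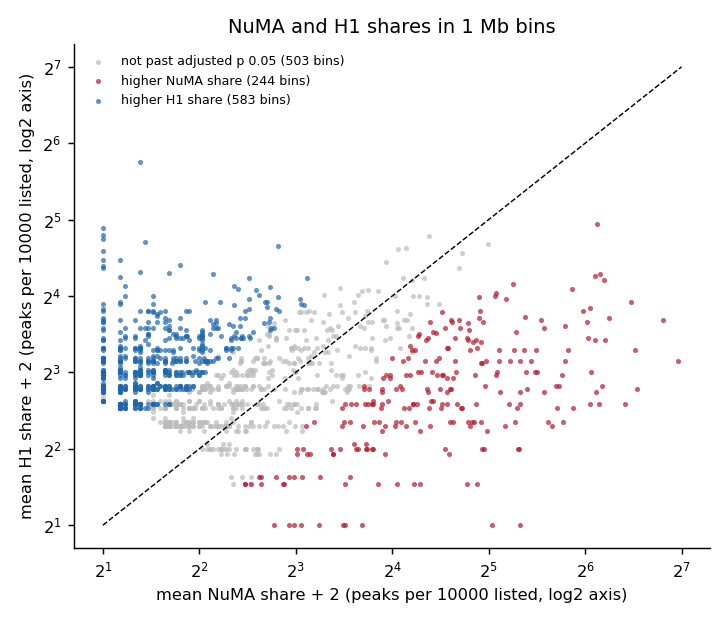
Each point is a 1 Mb bin among the 1330 tested, with the mean share of the NuMA lists on the horizontal and of the H1 lists on the vertical axis, both as peaks per 10000 listed plus 2 on log2 axes; the dashed line marks equal shares. The 244 red bins have a higher NuMA share and the 583 blue bins a higher H1 share, the 503 grey bins did not pass, and NuMA reaches farther along its axis than H1 does.

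The 10 bins of highest NuMA share held 98 to 229 NuMA peaks and 2 to 11 H1 peaks per list, where the mean over all bins was 1.47 and 1.79 H1 peaks. Their H1 counts thus lay above the H1 mean, but their share of the H1 lists was far below their share of the NuMA lists. The bin chr19:1000001-2000000, on the gene-rich short arm, held 183 C-terminal and 229 N-terminal peaks but 3 and 4 H1 peaks. Its NuMA share was higher by 3.81 ± 0.21 (SE) on the log2 scale (limma, Benjamini-Hochberg adjusted p = 4.5e-08). The bin chr17:79000001-80000000 held 171 and 194 NuMA peaks and 5 and 6 H1 peaks. The bin chr9:139000001-140000000, near the end of its long arm, held 131 and 175 NuMA peaks and 2 and 3 H1 peaks. The other 7 of the 10 highest lay at chr16:2000001-3000000, chr1:1000001-2000000, chr19:2000001-3000000, chr19:4000001-5000000, chr19:49000001-50000000, chr20:62000001-63000000 and chr14:105000001-106000000. Among these, the chromosome 14 bin held the most H1 peaks, 6 and 11, beside 98 and 145 NuMA peaks, and the chromosome 1 bin held 7 and 6 beside 131 and 161. All 10 passed with a higher NuMA share, a direction favoured by their choice for a high NuMA share in the same lists. Their adjusted p-values in this limma fit are thus no separate support. With lists of equal length the chromosome 14 bin did not pass (limma adjusted p = 0.063). With no filter on thin bins the bins on chromosomes 1, 14, 17 and the last named on chromosome 19 did not pass (limma adjusted p = 0.065 to 0.12). The largest difference was at chr19:7000001-8000000, with 55 and 73 NuMA peaks and 0 H1 peaks in both lists. The bin chrX:153000001-154000000 held 39 and 67 NuMA peaks and 0 H1 peaks in both lists.

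The bins of highest H1 share included bins with and without NuMA peaks. The highest, at chr8:86000001-87000000, held 27 and 25 H1 peaks and 1 peak of each NuMA list. Its difference was −4.37 ± 0.32 (SE, limma adjusted p = 3.5e-07). The bin was named for its H1 share and passed the filter through H1 alone, with NuMA shares of 0.70 and 0.51 per 10000. This p is thus no separate support for the difference. The bins chr14:106000001-107000000, chrY:13000001-14000000 and chr2:92000001-93000000 held 12 to 15 H1 peaks per list and 0 NuMA peaks. The immunoglobulin heavy chain genes lie in this part of chromosome 14, and the bins on chromosomes 2 and Y lie beside a centromere, where sequence is often repeated. Of the 10 bins of largest difference toward H1, the others lay at chr4:190000001-191000000, chr4:49000001-50000000, chr10:42000001-43000000, chr16:33000001-34000000, chr2:133000001-134000000 and chr8:7000001-8000000. Each of these held at most 2 peaks in a NuMA list. The bin chr4:49000001-50000000 did not pass without H1 replicate 1 (limma adjusted p = 0.060). The part that repeated sequence plays in these bins was not tested.

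Other H1-rich bins were rich in NuMA as well. The region chr17:73000001-74000000 held 14 and 15 H1 peaks, the second highest H1 share, together with 108 C-terminal and 116 N-terminal NuMA peaks. Its NuMA share was still higher, by 1.17 ± 0.19 (SE, limma adjusted p = 0.00022). That call ended without H1 replicate 1 (limma adjusted p = 0.079) or H1 replicate 2 (0.12), where the spread comes from the NuMA pair alone, and with no filter on thin bins (0.49). The neighbouring bin chr17:74000001-75000000 held 10 and 14 H1 and 43 and 58 NuMA peaks and did not pass (0.32 ± 0.23, adjusted p = 0.22). The bins chr14:23000001-24000000 and chr14:24000001-25000000 held 10 and 13 and then 11 and 15 H1 peaks with 25 to 35 NuMA peaks per list. Neither passed, with limma adjusted p = 0.12 and 0.16. The bin chr14:21000001-22000000 held 13 and 10 H1 and 7 and 10 NuMA peaks and was higher for H1 (−1.82 ± 0.33, limma adjusted p = 0.00045). That call ended at equal list length (limma adjusted p = 0.094) and with centred lists (0.056). The bin was named for its H1 share in the same lists, which favours this direction, so its p is no separate support.

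H1 peaks became more frequent with the number of NuMA peaks in a bin, but far less than in proportion. Bins without a NuMA peak held 0.52 H1 peaks in replicate 1 and 0.65 in replicate 2. With 1 to 4 NuMA peaks, summed over both lists, they held 1.72 and 1.94 H1 peaks, and with 5 to 19 they held 2.28 and 2.71. With 20 to 49 NuMA peaks they held 2.81 and 3.67, and with 50 or more 3.21 and 4.57. From the lowest to the highest class H1 thus increased 6.11-fold and 7.07-fold. From the class of 1 to 4 NuMA peaks to the highest it increased 1.86-fold and 2.36-fold. The 185 bins of the highest class held 60.1% of the NuMA peaks and 13.0% and 15.2% of the H1 peaks. The spread among bins of a class was wide, with an SD of 2.22 and 3.01 H1 peaks in the highest class. The class without NuMA also holds bins of unassembled sequence, where no list can have a peak. These class limits were chosen after the values were seen.

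H1 summits were many times more frequent at NuMA summits than the length of sequence gives. From 2 to 500 kb they were about as frequent as the length gives, and farther out they were sparser. For each H1 summit the nearest summit of either NuMA list was found. It lay within 1 kb for 1497 of 4552 summits (32.9%) in replicate 1 and 1466 of 5553 (26.4%) in replicate 2, a mean of 29.6% ± 4.6 (SD, n = 2). A further 6.57% and 8.43% lay at more than 1 and up to 10 kb, and the median distance was 41.7 kb and 51.4 kb. The chromosome spans were taken from the first to the last peak of any of the 4 lists, 3003 Mb in all. Of their length, 8.21% lay within 10 kb of a NuMA summit and 1.59% within 1 kb. H1 summits were thus 20.7 and 16.6 times as frequent within 1 kb as the length alone gives, a mean of 18.6 ± 2.9 (SD, n = 2). At equal list length the share was 12.1% and the ratio 26.7, and without the N-terminal list the share was 16.8%. The spans include unassembled sequence, which raises this ratio. No peaks of the immunoglobulin control were set beside these lists, so the part of background cutting in these shares was not tested.

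The excess at NuMA summits fell off within 2 kb. Per megabase, H1 summits within 100 bp of a NuMA summit were 47.9 and 37.7 times as dense as over the whole spans. The density was 41.4 and 30.7 times the mean at 200 to 300 bp, 19.7 and 16.9 times at 300 to 500 bp and 3.17 and 3.52 times at 750 to 1000 bp. At 1 to 2 kb it was 1.80 and 2.04 times the mean and at 2 to 5 kb 0.76 and 1.10 times. From there to 500 kb it stayed between 0.84 and 1.21 times. Farther out H1 was sparser. Only 6.24% and 6.25% of the H1 summits lay over 1 Mb from a NuMA summit, while 74.3% of the length lay within 1 Mb. The part of unassembled sequence in this was not measured. The local excess, the flat part from 2 to 500 kb and the sparse part beyond were seen in both H1 lists. Within a target the median distance depended on the direction, since the lists differ in length. It was 172 bp from a C-terminal to the nearest N-terminal summit and 1088.5 bp the other way, with 67.8% and 49.3% of the summits within 1 kb. From H1 replicate 1 to replicate 2 it was 269.5 bp and the other way 20.6 kb, with 54.8% and 45.0% within 1 kb.

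**Figure D3:**
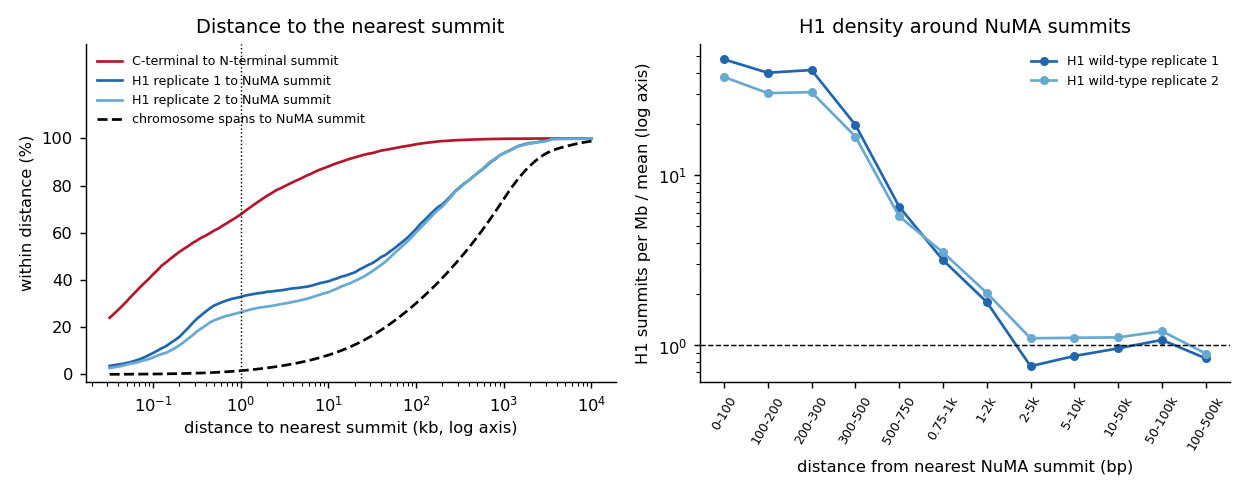
Left, share of H1 summits, of C-terminal NuMA summits and of the chromosome spans that lie within a distance (log axis, dotted line at 1 kb) of the nearest NuMA summit, of the N-terminal list for the C-terminal summits and of either list for the rest; right, H1 summits per Mb in rings around NuMA summits relative to their mean over the spans, on a log axis with a dashed line at 1. The H1 curves rise to 32.9% and 26.4% at 1 kb and more slowly to 39.5% and 34.8% at 10 kb. On the right the density is about 1 from 2 to 500 kb, where the rings end.

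The NuMA antibodies gave the same picture at different levels. Within 1 kb of an N-terminal summit lay 30.0% and 23.7% of the H1 summits, and within 1 kb of a C-terminal summit 18.4% and 15.2%. The N-terminal list is the longer of the pair. Inside NuMA peaks the H1 summits numbered 654 and 649 for the C-terminal list, which is 32.5 and 26.4 times as many as the covered length gives. Inside N-terminal peaks they numbered 1111 and 1048, or 35.8 and 27.7 times. Of these, 57.8% to 59.9% fell in the central 50% of the NuMA peak's width. The median distance of an H1 summit inside a NuMA peak to the NuMA summit was 183 to 192 bp.

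The local excess was largest where NuMA peaks were sparse. In bins with 1 to 4 NuMA peaks, 25.1% and 18.2% of the H1 summits lay within 1 kb of a NuMA summit, where 0.38% of the length lay, a ratio of 66.7 and 48.5. In bins with 50 or more, 58.5% and 51.5% did, against 14.9% of the length, a ratio of 3.93 and 3.46. The highest ratio possible is lower where more of the length lies near NuMA, so part of this fall is set by the measure. Per megabase of sequence within 1 kb of a NuMA summit, H1 summits numbered 115.6 and 94.4 in the sparse bins and 12.7 and 15.9 in the dense bins, a 9.11-fold and 5.93-fold difference. Away from NuMA summits the order was the other way, with 1.30 and 1.60 H1 summits per megabase in the sparse and 1.57 and 2.62 in the dense bins. H1 thus grew denser with NuMA over the bin as a whole and thinner at the NuMA summits themselves.

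**Figure D4:**
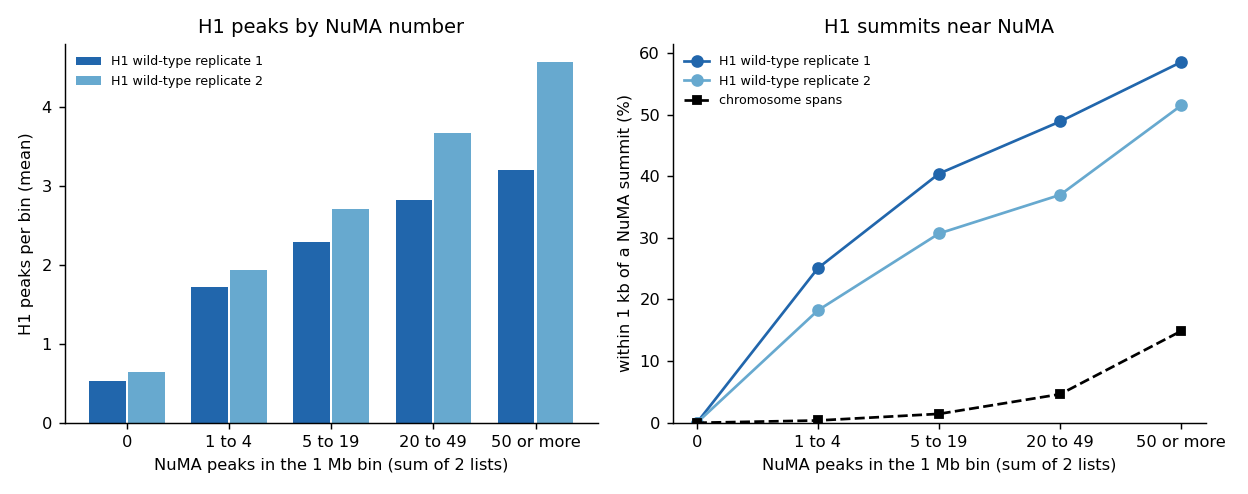
Left, mean number of H1 peaks per 1 Mb bin (bars, from 0) by the number of NuMA peaks in the bin, for both H1 replicates; right, share of the H1 summits of each class within 1 kb of a NuMA summit, with the share of the class's length as black squares. H1 peaks per bin rise from 0.52 and 0.65 to 3.21 and 4.57, and the gap between H1 and length is widest in relative terms at 1 to 4 NuMA peaks.

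Seen from NuMA, few peaks had H1 beside them, and these were mostly isolated ones. An H1 summit lay within 1 kb of 5.93% (replicate 1) and 5.96% (replicate 2) of the C-terminal peaks and of 7.08% and 6.80% of the N-terminal peaks. Of the 4838 C-terminal peaks that stood alone, 11.8% and 11.1% had an H1 summit within 1 kb. In C-terminal chains of 2 to 4 peaks 3.94% and 4.24% did, in chains of 5 to 9 peaks 2.23% and 2.82%, and in chains of 10 or more 1.73% and 2.08%. Of the 6331 N-terminal peaks that stood alone, 16.2% and 14.1% did, against 1.36% and 2.15% in chains of 10 or more. The share was 5.34 to 11.9 times higher for lone peaks than in chains of 10 or more in the 4 pairs of lists. Lone peaks were narrower than those in chains of 10 or more, with a median of 639 against 887 bp (C-terminal) and 746 against 992 bp (N-terminal). The share with H1 was also higher for lone peaks than in chains of 5 or more in 4 of 4 pairs of lists. This held without chromosome 19 and at equal list length too, and widths were not compared in these settings. Chains were examined after the values were seen.

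**Figure D5:**
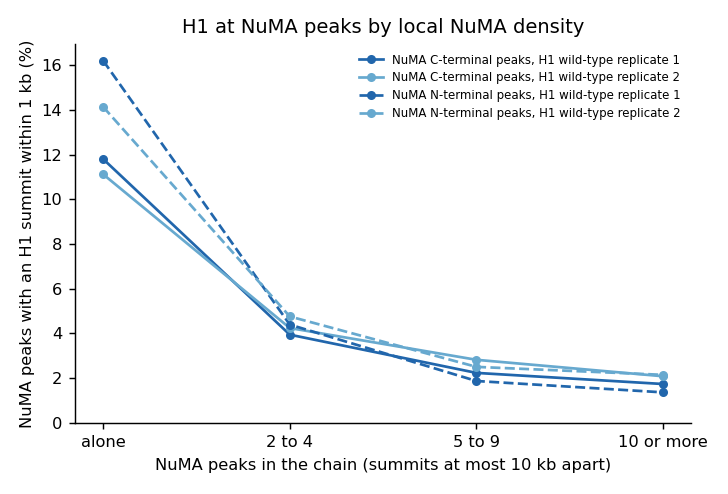
Share of NuMA peaks with an H1 summit within 1 kb, by the number of NuMA peaks in the chain (summits of a list at most 10 kb apart), for each pair of a NuMA and an H1 list. In all 4 pairs the share is highest for NuMA peaks that stand alone, at 11.1% to 16.2%, and 1.36% to 2.15% in chains of 10 or more.

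NuMA peaks with H1 nearby had slightly higher median widths, lower folds and higher −log10 p than those without, with no test. The median width was 761.5 and 734 bp for C-terminal peaks with an H1 summit within 1 kb of replicate 1 and 2, against 710 and 712 bp without. For the N-terminal list it was 805.5 and 798 bp against 787 and 788 bp. The authors' folds were lower with H1 in the C-terminal list, with a median of 5.07 and 5.02 against 5.63 in both, and 4.90 and 4.78 against 5.01 in both in the N-terminal list. The median −log10 p was 15.6 and 14.9 against 13.2 in both in the C-terminal list, and 27.7 and 27.0 against 21.0 in both in the N-terminal list. In the C-terminal list, 2.72% and 2.95% of the narrowest 25% of the peaks held an H1 summit, against 5.62% and 5.37% of the widest 25%. In the N-terminal list it was 3.55% and 3.28% against 5.72% and 5.33%. Per length the order was the other way, and in the widest 25% the H1 summits numbered 26.2 to 32.2 per megabase of peak, against 55.5 to 84.1 in the narrower width classes.

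H1 peaks were set against the other H1 list by their distance to NuMA, with no test. Within 1 kb of NuMA, 58.2% of the replicate 1 peaks overlapped a replicate 2 peak and 59.3% of the replicate 2 peaks overlapped a replicate 1 peak. At 1 to 100 kb it was 51.8% and 36.3%, at 100 kb to 1 Mb 52.6% and 41.1%, and over 1 Mb 58.8% and 48.1%. The authors' median fold was 6.53 and 6.29 within 1 kb and 6.13 and 5.96 at 1 to 100 kb. Of the 2485 H1 regions called in both replicates, 872 (35.1%) lay within 1 kb of a NuMA summit and 167 (6.72%) over 1 Mb from any.

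A peak of each of the other 3 lists overlapped 392 C-terminal peaks, 2.75% of that list. Set against the length of the other lists, this number is 2.01% of N-terminal, 8.61% of H1 replicate 1 and 7.06% of H1 replicate 2 peaks. Their C-terminal fold was lower than that of the whole list (median 4.54 against 5.58). On chromosome 19 lay 7.40% of them (29), below the 15.7% of the whole C-terminal list. The H1 lists had 155 of 4552 and 187 of 5553 peaks on chromosome 19, a lower share than that of the 392 regions. No gene annotation of hg19 was used here, so these regions are given by position. The best ranked in all lists lay at chr12:51441059-51442274, with folds of 12.5 (C-terminal), 9.86 (N-terminal), 9.25 and 9.35 (H1 replicates 1 and 2). It belonged to the top 7.37% of every list. The H1 summits lay 194 bp from the C-terminal summit in both replicates. At chr1:70876506-70877230 the folds were 12.2 and 9.03 for NuMA and 9.53 and 11.3 for H1, with the H1 summits 22 and 108 bp from the C-terminal summit. At chr2:198317881-198318656 they were 8.91 and 12.5 for NuMA and 8.01 and 8.31 for H1. The region chr14:45431249-45432030 had the highest H1 fold of the 10, 13.2 in replicate 1, with 8.03 in replicate 2. The other 6 lay at chr11:125461714-125463013, chr14:67826511-67827620, chr14:74416707-74417279, chr8:125985503-125986016, chr3:142720397-142721008 and chr17:73284907-73285963. In these 10 regions the N-terminal summit lay 3 to 444 bp and the H1 summits 22 to 569 bp from the C-terminal summit.

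Most of the H1 regions called in both replicates and farthest from NuMA lay beside centromeres. The 5 farthest were on chromosome 21 between 9695893 and 10702550, at 8183 to 9189 kb from the nearest NuMA summit, toward the short arm, which holds much duplicated sequence. The widest of these, at chr21:9698611-9700434, had folds of 5.35 and 5.51. The next was on the long arm of chromosome 2, at chr2:166650368-166651215, 3781 kb from NuMA, with folds of 8.83 and 7.35. On chromosome X 3 regions lay between 58568439 and 58580199, beside the centromere, and on chromosome Y 1 lay at chrY:13489064-13489452. Their folds were between 3.16 and 5.62. Any unassembled sequence between a region and the nearest NuMA summit counts in these distances, and its length was not measured.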

How the data were processed

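MACS2, Bowtie2, Trim Galore and Picard, with build hg19, are named in the submitters' processing notes, with versions and settings not given in the sources used here. Peaks were deposited as a list per library, and the peak names stated a q limit of 0.001. Each peak had a start, an end, a summit offset, a score, a fold, a −log10 p and a −log10 q. The deposited fold is the authors' ratio over local background, the deposited score is 10 times the −log10 q and was not used, and the deposited −log10 p and −log10 q served to rank and filter. A summit is the start plus the offset. Folds were used within a list only.

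Chromosomes 1 to 22, X and Y were kept. Peaks were assigned to 1 Mb bins by summit and counts divided by the list's length. Bins were tested with limma 3.58.1 (R 4.3.3) with a trend on log2(peaks per 10000 + 2), Benjamini-Hochberg adjusted, threshold 0.05. Neighbouring bins are not independent. The fit and the distances were tested on simulated data. Single values were compared by exact two-sided permutation over libraries. Summit fragments were read from fold and −log10 p where the result was whole to within 0.01 (96.3% to 100% of a list). Figures were drawn with matplotlib 3.10.9, and other steps ran in Python 3.11.15 (pandas 2.3.3, scipy 1.17.1, numpy 2.4.6). Named bins are the 10 of highest share of each target and the 10 of largest called difference each way. Named regions are the 10 best by their worst fold rank over 4 lists and the 10 shared H1 regions farthest from NuMA. The comparisons, members and rules were chosen with earlier results of these data known. Alternatives covered list length, q limit, chromosome 19, bin size, single libraries, pseudocount, filter, scaling, correlation, merging and the distance that counts as near. Sequence and gene annotation of hg19 were not used here. Artefact-prone regions were not removed.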

Additional observations from a re-analysis of the deposited data

Results flagged for a closer look

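Peaks on the mitochondrial genome lay outside all comparisons. H1 wild-type replicate 1 had 5 and H1 wild-type replicate 2 had 6, above 3, the limit on a mean that a count of 0 leaves. In the C-terminal NuMA list 1 such peak was present and in the N-terminal list 0. The limit is no test of 1 list against another, and the difference was not tested. The immunoglobulin G control was not analysed here.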

How the results depend on the processing

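Width, packing, distance within a list and the gap between correlations within and between targets kept their direction under every alternative run. With single libraries left out the gap in correlation was 0.46 to 0.69, the log2 width difference 0.90 to 1.05, the log2 distance difference −4.74 to −4.45 and the difference in the 311 densest bins 34.2 to 39.6 points. The exact permutation of 2 against 2 libraries cannot pass 0.05 under any setting. With a library left out, its target's lone library was assumed to vary like the other pair. The cause of moved values was not tested unless stated. The number of bins that differed went from 827 to 481 (135 NuMA, 346 H1) at equal list length, 437 (86 and 351) with 5 Mb bins, 281 (141 and 140) with no filter, 364 (144 higher in H1) with a stricter filter that tests fewer bins and 461 (112 higher in H1) with centred lists. With 250 kb bins 453 were higher in NuMA and 324 in H1. Without single libraries it was 380 (without H1 replicate 1) to 521 (without the N-terminal list), with 171 to 196 higher in NuMA and 204 to 341 in H1. H1 summits within reach of NuMA went from 29.6% to 12.1% at equal list length, 14.1% at 200 bp, 34.2% at 5 kb and 11.5% at NuMA summits of both antibodies, and from 16.8% to 32.9% without single libraries, lowest without the N-terminal list. The ratio over the length went from 18.6 to 26.7, 39.1, 6.49 and 22.9 in the same settings, and from 16.6 to 21.2 without single libraries. The share of NuMA peaks with H1 within 1 kb was 11.2 points higher for lone peaks than in chains of 5 or more. This gap went to 15.2 points when summits up to 50 kb apart were joined, a setting chosen after seeing the data. Among 32 named bins, 393 of 409 values kept direction and side of the threshold. The chromosome 14 bins at 23000001 and 24000001, which had not passed, turned to 0.0094 and 0.0081 at equal list length and to 0.39 and 0.47 with centred lists. No paired analysis was possible because the NuMA and H1 libraries share no numbered pairs and NuMA-depleted lists were not used.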
